A study of Homo sapiens with 12 samples.

Results

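The genes followed here encode proteins that clear 4-hydroxynonenal (4-HNE) and related aldehydes, and they were read across the 12 RNA-seq libraries of the series. Each was found as the line of the count table that carries its symbol. They are GSTA4, ABCC1, ALDH2, ALDH3A2, ALDH1A3, AKR1B1, AKR1C1, AKR1A1 and ADH5, which is 9 of 40591 named lines. Poly(A) RNA came from ARPE-19, a human cell line derived from the retinal pigment epithelium (RPE). The stable lines had expressed an open reading frame (ORF) for 4 days when they were collected. The groups, with 3 libraries each, are WT (ARPE-19 cells for which the labels name no ORF), GFP (a line with green fluorescent protein as its ORF), GSTA4 (the glutathione transferase itself as the ORF) and OSK, read here as the reprogramming factors OCT4 (gene POU5F1), SOX2 and KLF4. Which promoter drove an ORF, how many clones a line holds and whether libraries of the same group stem from separate cultures is not in the labels. P-values therefore measure the spread between these libraries, which may be technical, and an ORF cannot be told apart from other differences between the lines.

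4-HNE is a reactive aldehyde released when polyunsaturated fatty acids in membranes are oxidised, and it binds to proteins. Cells remove it by joining it to glutathione, a step for which GSTA4 is the specialised enzyme, and by pumping the conjugate out through ABCC1 (MRP1). They also oxidise it to an acid with aldehyde dehydrogenases, or reduce it to an alcohol with aldo-keto reductases and alcohol dehydrogenases. The RPE takes up light-exposed outer segments of photoreceptors that are rich in such fatty acids, so lipid aldehydes are studied there in ageing and macular degeneration.

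Over stretches of 100 coding bases, 5 of these genes can be told apart by sequence, and the others only in part. In the GRCh38 build with GENCODE 29, no stretch of 100 coding bases of GSTA4, ABCC1, ALDH3A2, AKR1B1 or AKR1A1 occurs in a transcript of another gene. For AKR1C1 (chr10:4963253-4983283, plus strand) 20.7% of such stretches do, most of them in its neighbour AKR1C2, with which it shares 950 of 969 coding positions. AKR1C3 shares 886 of 969 with AKR1C1. The first 90 coding bases of the 3 genes are shown because reads from such a stretch can hardly be assigned to AKR1C1 or AKR1C2, while AKR1C3 is easier to tell apart, and capitals mark where a gene differs from AKR1C1.
AKR1C1: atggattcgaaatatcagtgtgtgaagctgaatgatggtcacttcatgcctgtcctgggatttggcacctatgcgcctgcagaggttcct
AKR1C2: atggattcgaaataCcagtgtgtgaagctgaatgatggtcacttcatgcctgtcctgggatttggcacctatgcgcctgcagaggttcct
AKR1C3: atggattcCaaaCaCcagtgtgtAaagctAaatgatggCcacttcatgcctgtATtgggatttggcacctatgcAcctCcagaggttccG
In this stretch AKR1C2 differs at 1 position and AKR1C3 at 11. ALDH2 shares 40.2% of its 100-base coding stretches with AC002996.1, a gene that overlaps it on the same strand. Over whole exons 680 bases coincide, which is 7.0% of the exon bases of ALDH2. ALDH1A3 shares 1585 exon bases, 27.5% of its own, with the antisense gene AC015712.2. The strand setting of the counting is not given in the sources used here, so reads from those shared bases cannot be assigned with certainty. ADH5 shares 2.84% of its stretches, all with the pseudogene ADH5P4. Over stretches of 50 coding bases the shared part was larger, at 7.23% for AKR1B1, 13.65% for ALDH1A3 and 33.2% for ADH5. GSTA4, ABCC1, ALDH3A2 and AKR1A1 shared none at that length either.

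Start-site windows are shown for the 3 genes that change most clearly and hold a match to 1 of 4 short motifs. The windows run from 250 bases before to 50 after a start site (RefSeq, GRCh38.p14), and 7 of the 9 genes have one in the table used. The motifs were searched on both strands: the core of the antioxidant response element (TGACNNNGC), a KLF form (GGGTGNGGC), the octamer (ATGCNAAT) bound by POU factors, and a SOX form (CATTGTT). The spelling of the KLF form was chosen after the window of GSTA4 had been read. Capitals mark the matches, each sequence is on the strand of its gene, and none of these motifs overlaps another here. The windows are chr6:52995235-52995534 (minus strand) for GSTA4, chr15:100879581-100879880 (plus strand) for ALDH1A3 and chr17:19648501-19648800 (plus strand), 1 of 2 windows in the table, for ALDH3A2.
GSTA4: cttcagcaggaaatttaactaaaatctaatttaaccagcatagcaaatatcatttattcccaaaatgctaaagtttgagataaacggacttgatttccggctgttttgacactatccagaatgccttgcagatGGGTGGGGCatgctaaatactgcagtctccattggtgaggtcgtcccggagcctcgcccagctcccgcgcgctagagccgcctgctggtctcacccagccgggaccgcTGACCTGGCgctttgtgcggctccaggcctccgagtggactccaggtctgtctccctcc
ALDH1A3: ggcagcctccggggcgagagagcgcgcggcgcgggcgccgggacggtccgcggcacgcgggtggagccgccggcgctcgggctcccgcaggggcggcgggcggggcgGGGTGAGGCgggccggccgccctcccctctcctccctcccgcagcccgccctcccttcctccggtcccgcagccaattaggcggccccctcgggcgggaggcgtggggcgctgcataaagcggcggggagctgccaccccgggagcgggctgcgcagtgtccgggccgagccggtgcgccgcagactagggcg
ALDH3A2: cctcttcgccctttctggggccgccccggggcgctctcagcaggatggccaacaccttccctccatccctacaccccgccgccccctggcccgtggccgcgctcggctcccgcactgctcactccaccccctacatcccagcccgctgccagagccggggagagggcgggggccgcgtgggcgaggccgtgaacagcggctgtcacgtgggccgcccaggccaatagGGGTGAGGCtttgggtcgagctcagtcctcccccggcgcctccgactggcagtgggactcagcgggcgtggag
The GSTA4 window holds TGACCTGGC, a match to the antioxidant core, and GGGTGGGGC, a match to the KLF form. ALDH1A3 and ALDH3A2 each hold GGGTGAGGC. The windows of AKR1B1, AKR1C1, AKR1A1 and ADH5 and the other window of ALDH3A2 hold no match to any of the 4 motifs. None of the windows of these genes holds the octamer or the SOX form. Of 35116 windows in the table, 13.3% hold the antioxidant core, 5.66% the KLF form, 2.97% the octamer and 3.33% the SOX form. A match describes the letters of a window and is not a measured site.

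Library totals ran from 12630675 reads in GFP replicate 1 to 17045454 in WT replicate 3. Levels are CPM, the reads of a gene relative to the TMM-scaled size of its library, and a SD is over the n = 3 libraries of a group. A count of 0 allows up to 3 reads, which is 0.177 to 0.228 CPM, and covers counting error only. The defining RPE markers RPE65, TTR and CDH3 stood under 1 CPM on average in all groups, while OTX2, MITF, PMEL, KRT8 and KRT18 were well above it. The summed level of 15 RPE markers was 3101 to 3296 CPM in the WT libraries, 2886 to 3306 in those of GFP, 2185 to 2207 in the GSTA4 line and 2382 to 2446 with OSK. KRT8, EZR and KRT18 together held most of this sum in every group, with means of 1247, 658 and 432 CPM in WT. The sum of 15 markers of other cell types was 7.22 to 22.5 CPM in the WT libraries, 76.7 to 94.0 in those of GFP, 10.2 to 17 in the GSTA4 line and 22.2 to 30.1 with OSK. Most of it was TRPM1, which RPE cells also express, except in WT replicate 1, where TRPM1 had 2.74 CPM. PTPRC and CD3E were at 0 in the GSTA4 and OSK groups. WT replicate 1 stood apart: of 9605 genes with a mean of at least 10 CPM, 19 were over 2-fold above both other WT libraries and 29 were over 2-fold below both, against at most 3 and 4 in any other library. In GFP replicate 1, 27349 named genes were detected, where the other libraries detected 19488 to 22073. In bulk RNA, fewer cells of a type and less RNA per cell cannot be told apart.

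Of the 9 genes, 8 had enough reads to be tested, and 6 of these 8 differed somewhere among the groups (edgeR quasi-likelihood F test, adjusted p below 0.05), where 66.9% of all 15179 genes tested did. AKR1A1 (adjusted p = 0.493) and ADH5 (adjusted p = 0.0527) did not, and AKR1C1 was not tested. In the GSTA4 line against the GFP line 5 of the 8 were called, 3 higher and 2 lower, where 29.2% of all genes were called, 14.7% higher and 14.6% lower. The ORF itself is among the 3 higher genes. It is also among the calls over all groups, in OSK against GSTA4 and in GSTA4 against WT. In OSK against GFP 4 of the 8 were called, 2 higher and 2 lower, close to the 45.9% called over all genes (23.1% higher, 22.8% lower). Under scaling by library size alone the share of higher calls over all genes in that comparison went from 50.4% to 39.8%, and 5 of the 8 genes were called. GFP against WT called 3 of the 8, 1 higher and 2 lower, against 22.2% of all genes (11% higher, 11.2% lower). OSK against GSTA4 called 5, 2 higher and 3 lower, against 47.8% (24.1% higher, 23.8% lower). Against WT the GSTA4 line had 6 calls, 3 in each direction, where 38.6% of all genes were called (19.7% higher, 19% lower), and OSK had 5, 2 higher and 3 lower, where 45.4% were called (22.7% higher, 22.7% lower). The median log2 fold change of the 8 genes was 0.10 in GSTA4 against GFP, where that of all genes was 0.01, and 0.11 in OSK against GFP, where that of all genes was -0.02. These comparisons share groups, so they are given side by side. The genes did not all move in 1 direction. Beside GSTA4, the mean of the highest group over that of the lowest was 2.43 for AKR1B1, where 1 WT library decides it, 2.27 for ABCC1, 1.78 for ALDH3A2 and 1.71 for ALDH1A3.

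**Figure D1:**
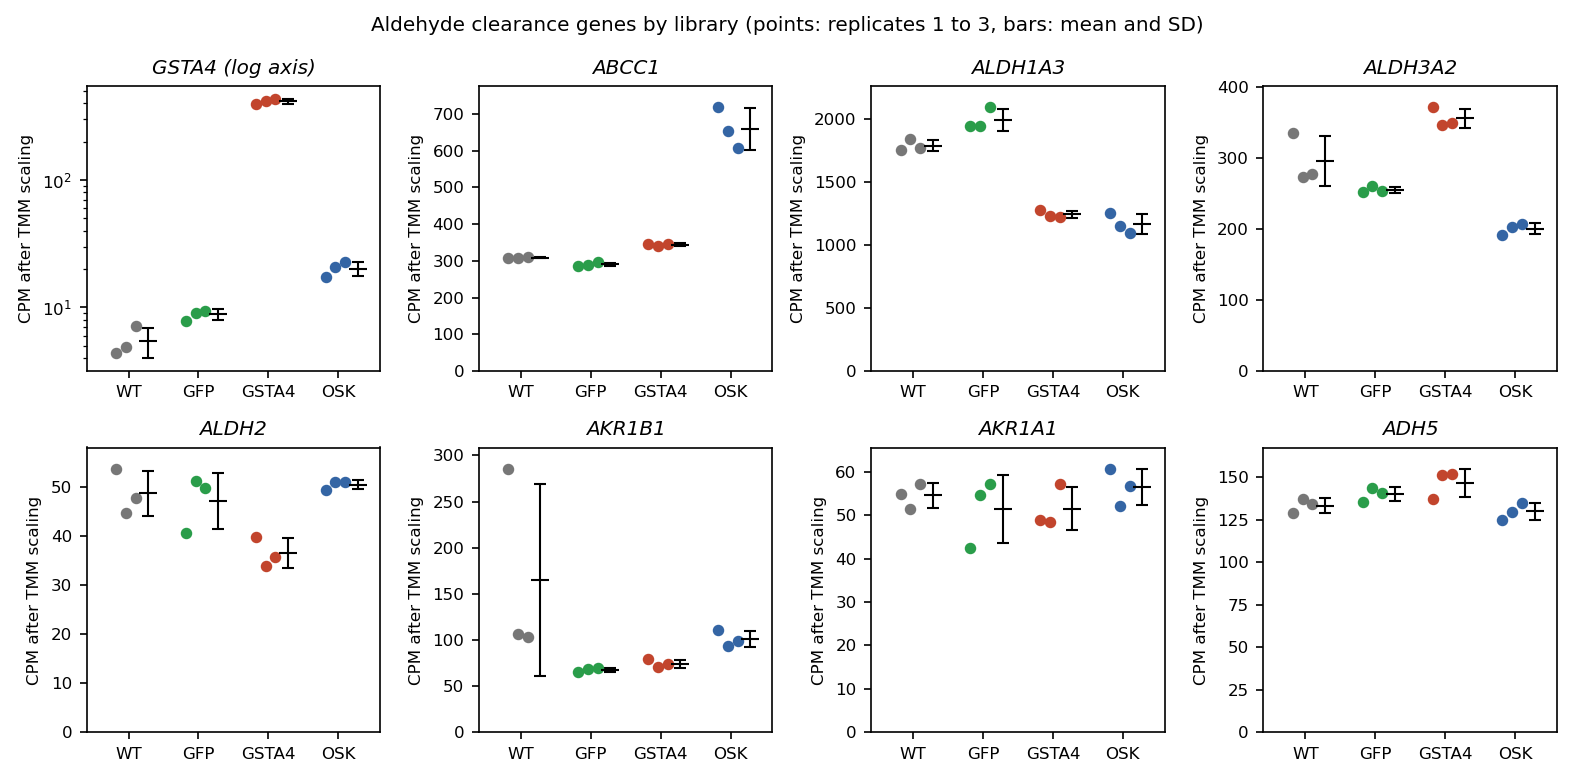
Level of each tested gene in every library, in CPM after TMM scaling (linear axes from 0, except GSTA4 on a log axis), with points for replicates 1 to 3 of WT, GFP, GSTA4 and OSK and bars for the mean and SD. GSTA4 is far higher in its own line than in the other groups, and ABCC1 is highest in OSK (607 to 719 CPM). ALDH1A3 is lower in GSTA4 and OSK than in WT and GFP, and AKR1B1 has 1 high library, WT replicate 1.

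GSTA4 (chr6:52977948-52995378, minus strand) encodes the glutathione transferase that conjugates 4-HNE. It had 4.42, 4.85 and 7.14 CPM in the WT libraries, 7.83, 9.10 and 9.44 in those of GFP, 17.4, 20.7 and 22.5 with OSK, and 396, 420.5 and 431 in the GSTA4 line. The 4 groups did not overlap and fell in the order WT, GFP, OSK, GSTA4, with every neighbouring pair past the threshold. The GSTA4 line stood 47.1-fold above GFP (log2 5.56, SE 0.114, edgeR adjusted p = 3.7e-18). That value checks the label, and the table does not separate ORF reads from reads of the endogenous gene. OSK, which does not carry this ORF, was 2.29-fold above GFP (95% interval 1.91 to 2.75, edgeR adjusted p = 1.33e-07) and 3.66-fold above WT (adjusted p = 3.27e-10). GFP was 1.6-fold above WT (95% interval 1.28 to 1.99, adjusted p = 0.00355), on 66 to 121 reads a library in WT and 103 to 139 in GFP.

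The level of GSTA4 in OSK was 4.86% of that in the GSTA4 line. For 3 other genes that were high in the GSTA4 line, chosen after their values had been seen, the level in OSK was 1.41% (LOXL4), 1.31% (ATP1B2) and 0.746% (C1orf220) of that in the GSTA4 line. The level in GFP ran the other way, at 2.11% of that in the GSTA4 line for GSTA4, 6.94% for LOXL4, 4.57% for ATP1B2 and 3.76% for C1orf220. Other genes high in the GSTA4 line kept a larger part in OSK than GSTA4 did: EGR1 had 66.7 CPM in that line and 8.20 in OSK, and LRAT 14.3 and 1.40. As the 3 genes were picked, the comparison is a description and supports nothing further. C1orf220 had 202 to 250 reads in the GSTA4 libraries and 0, 2 and 3 in OSK. The alpha class relatives of GSTA4 had almost no reads: GSTA1 had 7 in GFP replicate 1, 2 in GFP replicate 2 and 0 in the other 10 libraries, and none of GSTA1, GSTA2, GSTA3 and GSTA5 could be tested. GSTA4 was thus the only gene of its class that passed the filter on low counts.

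ABCC1 (chr16:15949577-16143074, plus strand), the pump that exports glutathione conjugates, was highest in the OSK line and also slightly higher in the GSTA4 line than in GFP. It had 307, 308 and 310.3 CPM in the WT libraries, 287, 289 and 296 in those of GFP, 347, 339 and 346 in the GSTA4 line, and 719, 654 and 607 with OSK. No pair of groups overlapped, and OSK stood well above the other 3. The fold change in OSK was 2.27 against GFP (95% interval 2.08 to 2.48, edgeR adjusted p = 2.04e-12) and 1.92 against GSTA4 (1.76 to 2.09, adjusted p = 4.83e-11). The GSTA4 line was 1.18-fold above GFP (1.09 to 1.29, adjusted p = 0.00424).

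Against WT the same line was 1.12-fold higher in ABCC1 (adjusted p = 0.0446), a call lost when any 1 of 9 libraries was left out (each WT and each GSTA4 library, GFP replicates 2 and 3, OSK replicate 2), with adjusted p-values from 0.0503 to 0.11. GFP and WT, the neighbours at the low end, did not differ by the test (95% interval of the fold 0.862 to 1.03, adjusted p = 0.327). No stretch of 100 coding bases of ABCC1 is shared with another gene. Its values within WT, GFP and GSTA4 spread little, with SDs of 1.69, 4.68 and 4.12 CPM, against 56.5 in OSK.

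ALDH1A3 (chr15:100877714-100916626, plus strand) oxidises aldehydes and is best known for making retinoic acid from retinaldehyde. It was the most abundant of the 9 genes, and it was lower in both the GSTA4 and the OSK lines. The libraries held 1754, 1839 and 1768 CPM in the WT libraries, 1939.6, 1944 and 2091 in those of GFP, 1272, 1229 and 1221 in the GSTA4 line, and 1255, 1146 and 1095 with OSK. All 6 libraries of GSTA4 and OSK lay below all 6 of WT and GFP, while GSTA4 and OSK overlapped each other. The fold change against GFP was 0.623 in GSTA4 (95% interval 0.570 to 0.681, edgeR adjusted p = 3.57e-08) and 0.585 in OSK (0.535 to 0.640, adjusted p = 2.24e-09).

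OSK and GSTA4 differed in ALDH1A3 by 0.939-fold, with a 95% interval of 0.859 to 1.03 (edgeR adjusted p = 0.245). Scaling by library size alone put that difference past the threshold (log2 -0.15, adjusted p = 0.024). GFP was 1.11-fold above WT with no overlap (1.02 to 1.22, adjusted p = 0.0746). That difference passed the threshold with library size alone (adjusted p = 0.0378), at 1 CPM or more (0.047), in DESeq2 (0.0316), with the replicate number as a block (0.0494) and without WT replicate 1 and GFP replicate 1 together (0.0339). The summed RPE markers were also lower in the GSTA4 and OSK groups than in WT and GFP. Against GFP, 9 of the 12 tested markers fell in GSTA4 and 11 of 12 in OSK, where 14.6% and 22.8% of all genes fell. LRAT rose in GSTA4 and EZR in OSK. GFP itself had 8 of the 12 above WT and 2 below, where 11% of all genes were higher. Against WT, 7 were lower and 3 higher in GSTA4, and 5 lower and 3 higher in OSK. Of all genes, 19% were lower and 19.7% higher in GSTA4 against WT, and 22.7% each way in OSK. The part of these markers in the ALDH1A3 result was not tested. Reads of the antisense gene AC015712.2 may be counted in it.

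ALDH3A2 (chr17:19648136-19677598, plus strand), the fatty aldehyde dehydrogenase of the endoplasmic reticulum, moved in opposite directions in the 2 lines. It had 336, 273 and 278 CPM in the WT libraries, 252, 260.2 and 253 in those of GFP, 372, 346 and 349 in the GSTA4 line, and 192, 202 and 207 with OSK. No 2 groups overlapped, and the order was OSK, GFP, WT, GSTA4. Against GFP the fold change was 1.39 in the GSTA4 line (95% interval 1.26 to 1.54, edgeR adjusted p = 2.12e-05) and 0.785 in OSK (0.710 to 0.869, adjusted p = 0.000361). Tested directly, OSK stood at 0.563 of the GSTA4 line (0.509 to 0.623, adjusted p = 3.41e-09).

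WT replicate 1 was the highest of its group for ALDH3A2. GFP was 0.863-fold of WT (edgeR adjusted p = 0.032), and this call was lost without WT replicate 1 (log2 -0.12, adjusted p = 0.191) and without any 1 of the GFP libraries (adjusted p 0.0668 to 0.0796). The GSTA4 line stayed above WT (1.20-fold, adjusted p = 0.00432) under the 21 alternatives, which gave log2 values of 0.21 to 0.37.

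ALDH2 (chr12:111766887-111817529, plus strand), the mitochondrial enzyme that also oxidises acetaldehyde, was lower in the GSTA4 line than in each other group. It had 53.7, 44.6 and 47.7 CPM in the WT libraries, 40.6, 51.2 and 49.7 in those of GFP, 39.8, 33.8 and 35.7 in the GSTA4 line, and 49.4, 51.0 and 50.9 with OSK. The GSTA4 libraries lay below all others, though the highest of them came close to GFP replicate 1, and WT, GFP and OSK overlapped. The fold change in GSTA4 was 0.773 against GFP (95% interval 0.675 to 0.886, edgeR adjusted p = 0.00511) and 0.749 against WT (adjusted p = 0.00132). OSK was 1.38-fold above GSTA4 (1.21 to 1.58, adjusted p = 0.00031). OSK and GFP did not differ by the test (0.935 to 1.22, adjusted p = 0.423). Reads of AC002996.1 may be counted in ALDH2 or left out with it. Genes of the mitochondrial genome took 7.55% to 7.82% of reads in GSTA4, 6.05% to 6.54% in GFP and 6.81% to 6.89% in OSK, and the part of this share in the ALDH2 result was not tested.

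**Figure D2:**
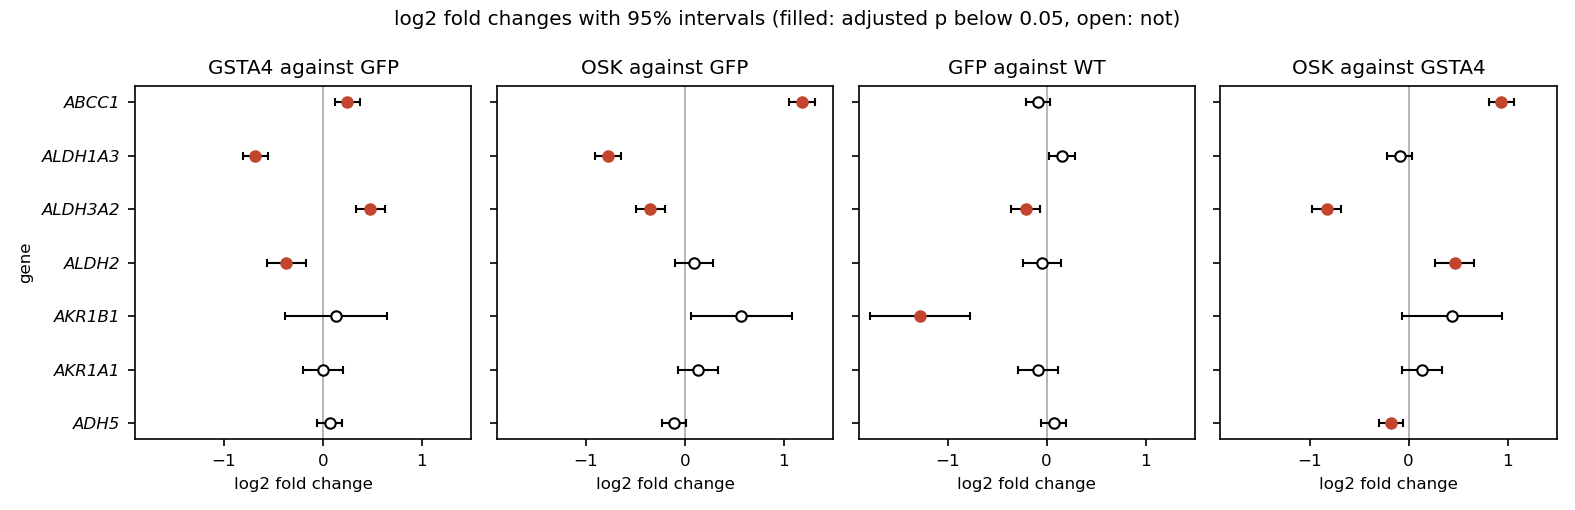
Log2 fold changes of 7 genes in 4 comparisons (each ORF line with GFP, GFP with WT, OSK with GSTA4, the former over the latter), with 95% intervals as bars, filled points for adjusted p below 0.05 and open points otherwise. ABCC1 lies to the right in OSK against GFP (1.18), ALDH1A3 to the left in both lines (-0.68 and -0.77), ALDH3A2 on opposite sides (0.48 and -0.35), and AKR1B1 has the widest intervals.

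AKR1B1 (chr7:134442350-134459284, minus strand) is aldose reductase, which reduces glucose and also 4-HNE and its glutathione conjugate. Its values were 286, 106 and 104 CPM in the WT libraries, 65.7, 68.7 and 70.0 in those of GFP, 79.2, 70.7 and 74.0 in the GSTA4 line, and 111, 93.9 and 99.3 with OSK. WT replicate 1 lay far above the other 11 libraries, with 4594 reads, and it set the spread of the test for this gene. With all libraries, GFP was 0.412-fold of WT (log2 -1.28, SE 0.243, edgeR adjusted p = 0.000829). OSK was 1.49-fold above GFP, with no overlap but not past the threshold (log2 0.57, SE 0.245, adjusted p = 0.0625).

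Without WT replicate 1 the GFP level of AKR1B1 was still below WT, by a smaller margin (log2 -0.63, edgeR adjusted p = 2.04e-07), and so was the GSTA4 level (-0.49, adjusted p = 2.58e-06, against -1.15 with it). The difference of OSK from GFP kept its size (0.58) and passed the threshold (adjusted p = 1.48e-08), and so did that of OSK from GSTA4 (0.44, adjusted p = 1.44e-06, where it was 0.147 with that library). OSK against WT lost its call and most of its size, from log2 -0.71 (adjusted p = 0.0186) to -0.05 (adjusted p = 0.6). That call was also lost without OSK replicate 2 (adjusted p = 0.0693) and without OSK replicate 3 (adjusted p = 0.057). The call of OSK against GFP was also made without WT replicate 2 (adjusted p = 0.0316) or WT replicate 3 (adjusted p = 0.0259).

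CAPN5, a calpain protease, and BRINP1 were the 2 genes with the pattern nearest to AKR1B1, by the root mean square difference of log2(CPM + 0.5) centred on each gene's mean over the 12 libraries (0.18 and 0.23, from 13670 genes). CAPN5 had 158 CPM in WT replicate 1 against 87.8 and 85.6 in the other WT libraries, and BRINP1 had 48.7 against 30.3 and 23.0. Both were lower in GFP and GSTA4 than in OSK, at 59.6 and 55.5 CPM against 78.5 for CAPN5. These genes were picked for their likeness to AKR1B1 over all 12 libraries, WT replicate 1 included, so their high value there is a description and supports nothing further.

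**Figure D3:**
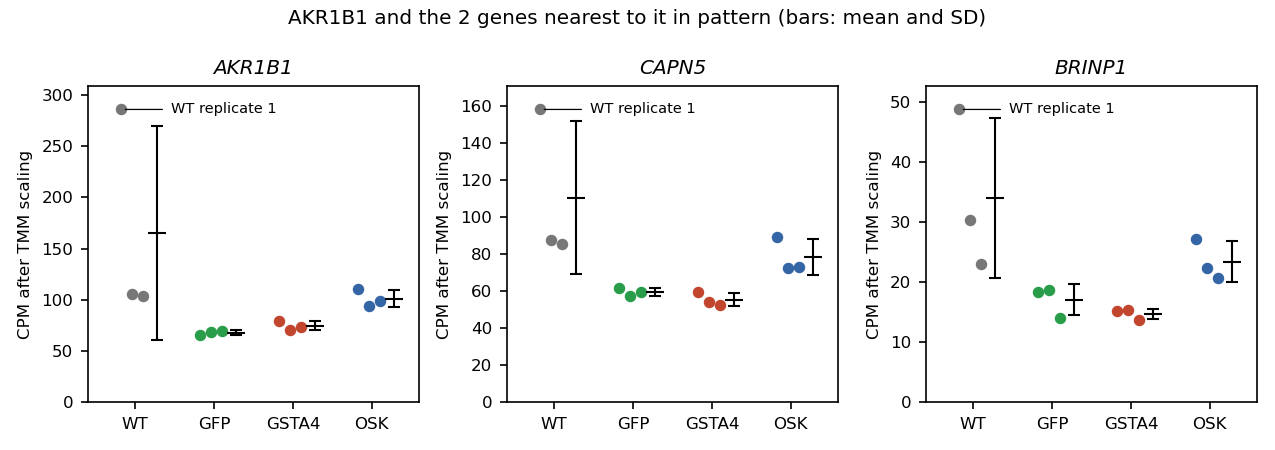
AKR1B1, CAPN5 and BRINP1 in every library, in CPM after TMM scaling (linear axes from 0), with points for replicates 1 to 3 of each group and bars for the mean and SD. In each panel WT replicate 1 is the highest point (286, 158 and 48.7 CPM), and OSK lies above GFP and GSTA4.

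AKR1C1, which reduces ketosteroids and lipid aldehydes, was not detectable at this depth, with 1 read in the 12 libraries (GFP replicate 2). AKR1C2 had 0 to 2 reads a library. The reads of this gene cluster fell on AKR1C3, the prostaglandin F synthase, with 8.32 CPM ± 1.59 (SD, n = 3) in WT and 4.92 ± 0.244 in GFP, against 3.73 ± 0.172 in the GSTA4 line and 7.17 ± 2.03 in OSK. AKR1C3 was lower in GFP than in WT (log2 -0.76, edgeR adjusted p = 0.0117), though not without WT replicate 1 and GFP replicate 1 together (adjusted p = 0.0861). AKR1C3 shares 9.77% of its 100-base coding stretches with another gene, so reads of the cluster may be split between its genes.

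AKR1A1 (chr1:45550543-45570049, plus strand), a widely expressed aldehyde reductase, had 54.9, 51.5 and 57.2 CPM in the WT libraries, 42.4, 54.7 and 57.1 in those of GFP, 48.8, 48.5 and 57.1 in the GSTA4 line, and 60.5, 52.2 and 56.8 with OSK. All groups overlapped, and GFP replicate 1 was the lowest library. The interval of the fold was 0.867 to 1.15 in GSTA4 against GFP (edgeR adjusted p = 0.999) and 0.952 to 1.26 in OSK against GFP (adjusted p = 0.281). ADH5 (chr4:99070978-99088801, minus strand) oxidises the formaldehyde adduct of glutathione and reduces S-nitrosoglutathione. It had 129, 137 and 134 CPM in the WT libraries, 136, 144 and 141 in those of GFP, 137, 152 and 152 in the GSTA4 line, and 125, 129.9 and 135 with OSK. The GSTA4 libraries lay above the OSK libraries. The means of WT and GFP lay between, with libraries of WT inside the OSK range and libraries of GFP inside the GSTA4 range.

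OSK was 0.886-fold of the GSTA4 line in ADH5 (95% interval 0.813 to 0.965, edgeR adjusted p = 0.0188). That call was lost without GSTA4 replicate 2 or 3 and without OSK replicate 1 or 2, with adjusted p-values of 0.0552 to 0.122. Against GFP the intervals were 0.962 to 1.14 in GSTA4 (adjusted p = 0.434) and 0.852 to 1.01 in OSK (adjusted p = 0.143), and library size alone called the latter (log2 -0.18, adjusted p = 0.0116). GSTA4 against WT was 0.14 (adjusted p = 0.0715), and it passed the threshold with the replicate number as a block (0.0468) and without GSTA4 replicate 1 (0.0302). The 6 other alcohol dehydrogenases of the list, all in the table, were too low to be tested, which left ADH5 as the only one.

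To compare genes, levels were divided by the merged exon length of the gene (GENCODE 29), which gives CPM per kb. On that scale ALDH1A3 was highest in every group, from 202 CPM per kb ± 14.2 in OSK to 345 ± 15.0 in GFP. In WT it was followed by ALDH3A2 (45.8 ± 5.37), AKR1B1 (45.2 ± 28.5), ABCC1 (40.7 ± 0.223), ADH5 (27.4 ± 0.878), AKR1A1 (17.5 ± 0.927), ALDH2 (5.01 ± 0.476) and GSTA4 (2.51 ± 0.673). The neighbours ALDH3A2, AKR1B1 and ABCC1 lay within their spread of each other. Without WT replicate 1 the WT value of AKR1B1 was 28.7 (n = 2), below ABCC1 (40.8) and next to ADH5 (27.9). GSTA4 was thus the lowest of the 8 tested genes in WT and in GFP (4.04 ± 0.39). In the GSTA4 line it reached 191 ± 8.1, beside 215 ± 4.75 for ALDH1A3 and 45.4 ± 0.544 for ABCC1. That value divides by the merged exons of the endogenous gene (2.175 kb), whose coding part is 666 bases. How much of these exons the ORF carries is not known here, so the place of GSTA4 in this line holds for that length only. In OSK the second place went to ABCC1 (87.1 ± 7.45). Merged exons overstate the length of genes with many alternative exons, so the order is a description.

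The nearest patterns were looked up for the other genes in the same way, and the distances are descriptions over 12 libraries. SH3GLB2 lay nearest to ABCC1 (0.06) and rose from 142 CPM ± 5.17 in GFP to 325 ± 5.17 in OSK, with 166 ± 4.29 in GSTA4. EPB41L3 and SMARCA1 lay nearest to ALDH3A2 (0.06 and 0.07), and EPB41L3 had 126 CPM ± 1.93 in GSTA4, 91.4 ± 3.69 in GFP and 71.4 ± 3.37 in OSK. DENND1A (0.06) was nearest to ALDH2, EVC2 (0.09) to ALDH1A3, TMEM147 (0.08) to AKR1A1 and MAT2A (0.03) to ADH5. For GSTA4 the nearest gene, the immediate early transcription factor EGR1, was distant (0.83). EGR1 had 2.07 CPM ± 0.771 in WT, 6.66 ± 1.02 in GFP, 8.2 ± 1.37 in OSK and 66.7 ± 11.3 in GSTA4, with libraries of GFP and OSK overlapping.

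Of 13 other tested aldehyde dehydrogenases, 3 rose and 4 fell in GSTA4 against GFP (53.8% called, where 29.2% of all genes were). In OSK against GFP 3 rose and 3 fell (46.2%), next to the 45.9% called over all genes. GFP itself had 6 of the 13 above WT and none below, where 11% of all genes were higher and 11.2% lower. ALDH1B1, a mitochondrial relative of ALDH2, fell in both lines, from 189 CPM ± 23.4 in GFP to 95.6 ± 6.07 in GSTA4 (log2 -0.99, edgeR adjusted p = 2.97e-06) and 82.9 ± 3.94 in OSK (-1.19, adjusted p = 9.52e-08). ALDH4A1, which acts in proline breakdown, fell likewise (-0.64, adjusted p = 2.09e-05, and -1.13, adjusted p = 4.58e-09). ALDH3B1, which oxidises lipid aldehydes at membranes, rose in both, from 205 CPM ± 25.2 in GFP to 308 ± 19.2 in GSTA4 (0.59) and 555 ± 57.8 in OSK (1.44, adjusted p = 1.06e-10). ALDH9A1 rose in the GSTA4 line (0.39, adjusted p = 0.00013) and had a log2 value of -0.10 in OSK (adjusted p = 0.238).

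Reductases outside the aldo-keto family, with aldehyde oxidase, had 5 of 9 higher and none lower in OSK against GFP, where 23.1% of all genes were higher and 22.8% lower. In GSTA4 against GFP 2 were higher and 1 lower (33.3% called), near the 29.2% over all genes. AOX1, aldehyde oxidase, had 21.8, 9.11 and 9.50 CPM in the WT libraries, 1.90, 2.22 and 2.17 in those of GFP, 4.83, 1.95 and 4.06 in the GSTA4 line, and 41.7, 35.9 and 44.5 with OSK. OSK lay above every other library and GFP was low throughout, with GSTA4 overlapping GFP. The fold in OSK against GFP was 19.3 (log2 4.27, SE 0.305, edgeR adjusted p = 3.71e-10). GFP lay below WT for this gene (log2 -2.68, adjusted p = 8.37e-06), and the fold in OSK against WT was 3.00 (log2 1.59, adjusted p = 1.05e-05). NQO1, a quinone reductase and common target of the antioxidant response, fell in GSTA4 against GFP (-0.87, adjusted p = 1.14e-05) and rose in OSK (0.47, adjusted p = 0.00152). HSD17B12 rose in OSK (0.34, adjusted p = 0.00152). PTGR1, which reduces the double bond of enones such as 4-HNE, was higher in GSTA4 (0.32, adjusted p = 0.0272), a call lost without GFP replicate 1, GFP replicate 3 or GSTA4 replicate 1 (adjusted p 0.0815 to 0.149).

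Of 4 other tested aldo-keto reductases, AKR1C3 and AKR7A2 were higher in OSK against GFP (50% called), near the 45.9% called over all genes. None was called in GSTA4 against GFP, where 29.2% of all genes were. All 4 genes of the glyoxalase list were called in OSK against GFP, 3 higher and 1 lower, where 45.9% of all genes were called. HAGH, glyoxalase 2, rose by 0.63 on the log2 scale (edgeR adjusted p = 1.16e-05) against GFP, which lay below WT for this gene (-0.55, adjusted p = 0.000262), and OSK against WT was 0.08 (adjusted p = 0.523). AKR1C3 likewise had -0.23 in OSK against WT (adjusted p = 0.375). ESD, which acts after ADH5 in formaldehyde removal, fell by 0.49 in OSK against GFP (adjusted p = 2.56e-05). OSK against WT was -0.25 for ESD (adjusted p = 0.0117). GFP lay above WT for ESD (0.24, adjusted p = 0.0284), a call lost without any 1 of 4 libraries (adjusted p 0.0677 to 0.11). Calls for 4 other genes in OSK against GFP were lost without GFP replicate 1: AKR1C3 (adjusted p = 0.106), AKR7A2 (0.1), GLO1 (0.136) and PARK7 (0.0826). They were also lost under library size alone. The call of AKR1C3 was lost without GFP replicates 2 or 3 or OSK replicates 1 or 3 as well, that of AKR7A2 without OSK replicate 3, and that of GLO1 without any 1 of the OSK libraries.

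Among 6 other tested exporters of conjugates, none was higher and 3 were lower in GFP against WT, where 11% of all genes were higher and 11.2% lower. In GSTA4 against GFP 2 were lower (33.3% called, near the 29.2% over all genes), and in OSK against GFP 1 was higher and 1 lower (33.3%, where 45.9% of all genes were called). ABCC4, a relative of ABCC1, fell in both lines against GFP (log2 -0.53 in GSTA4, edgeR adjusted p = 0.0014, and -0.68 in OSK, adjusted p = 5.94e-05). ABCC3 had 10.8 CPM ± 0.987 in WT and 2.93 ± 1.02 in GFP, with 3.61 ± 0.547 in the GSTA4 line and 8.76 ± 0.836 in OSK, a rise of 1.59 in OSK against GFP (adjusted p = 2.52e-06), while OSK against WT was -0.30 (adjusted p = 0.185). ABCC10 was lower in GFP than in WT (-0.56, adjusted p = 0.000343), and OSK stood at -0.06 against GFP (adjusted p = 0.657). ABCC5, from 185 CPM ± 9.58 in GFP, fell to 157 ± 9.34 in GSTA4 (-0.23, adjusted p = 0.00877), a call lost without GSTA4 replicate 1 or 2 (adjusted p = 0.0566 and 0.0517), and it had -0.09 in GSTA4 against WT (adjusted p = 0.288).

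Steps before and after conjugation were read from 2 lists. Of 10 genes of glutathione supply 4 rose and 1 fell in OSK against GFP, near the 45.9% called over all genes, and 1 rose and 1 fell in GSTA4 against GFP, where 29.2% of all genes were called. SLC7A11, the cystine importer, had 2.36, 2.06 and 1.36 CPM in the WT libraries, 1.14, 0.86 and 1.43 in those of GFP, 1.46, 1.20 and 1.72 in the GSTA4 line, and 8.82, 10.8 and 10.6 with OSK. OSK alone stood apart, at 8.71-fold over GFP (edgeR adjusted p = 3.55e-09). Its partner SLC3A2, by contrast, fell in both lines, from 781 CPM ± 45.5 in GFP to 383 ± 15.3 in GSTA4 (log2 -1.03, adjusted p = 1.7e-10) and 552 ± 12 in OSK (-0.50, adjusted p = 2.28e-06). GSR, which regenerates glutathione, rose in OSK (1.18, adjusted p = 6.96e-11) and had 0.08 in GSTA4 (adjusted p = 0.497). OPLAH, which returns glutamate from 5-oxoproline, rose in the GSTA4 line (0.43, adjusted p = 0.0058).

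Of 13 genes of the mercapturate route, which trims exported conjugates, only 3 were tested. GGT7 rose in both lines against GFP (log2 0.41, edgeR adjusted p = 0.000151, and 0.33, adjusted p = 0.000691), and LAP3 rose in OSK (0.33, adjusted p = 0.00404). Of 13 tested genes that form or limit lipid peroxides, 3 rose and 4 fell in OSK against GFP (53.8% called, where 45.9% of all genes were), and 2 rose and 4 fell in GSTA4 against GFP (46.2%, where 29.2% of all genes were). LPCAT3, which places polyunsaturated chains in phospholipids, rose from 24.0 CPM ± 1.25 in GFP to 144 ± 8.41 in OSK (2.58, adjusted p = 2.18e-16) and fell to 19.2 ± 1.02 in GSTA4 (-0.32, adjusted p = 0.0053). PRDX6, a peroxiredoxin that reduces lipid peroxides, rose in both (1.64 in OSK, adjusted p = 9e-15, and 0.23 in GSTA4, adjusted p = 0.00607).

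GPX4, the glutathione peroxidase of membrane lipids, fell in OSK (log2 -0.37, edgeR adjusted p = 4.11e-05) and had 0.11 in GSTA4 (adjusted p = 0.179). TFRC, the transferrin receptor, fell in GSTA4 (-0.61, adjusted p = 3.11e-06). Its value in OSK was -0.19 (adjusted p = 0.047), a call lost without any 1 of 10 libraries (adjusted p 0.0528 to 0.347) and kept only without WT replicate 1 or OSK replicate 1.

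**Figure D4:**
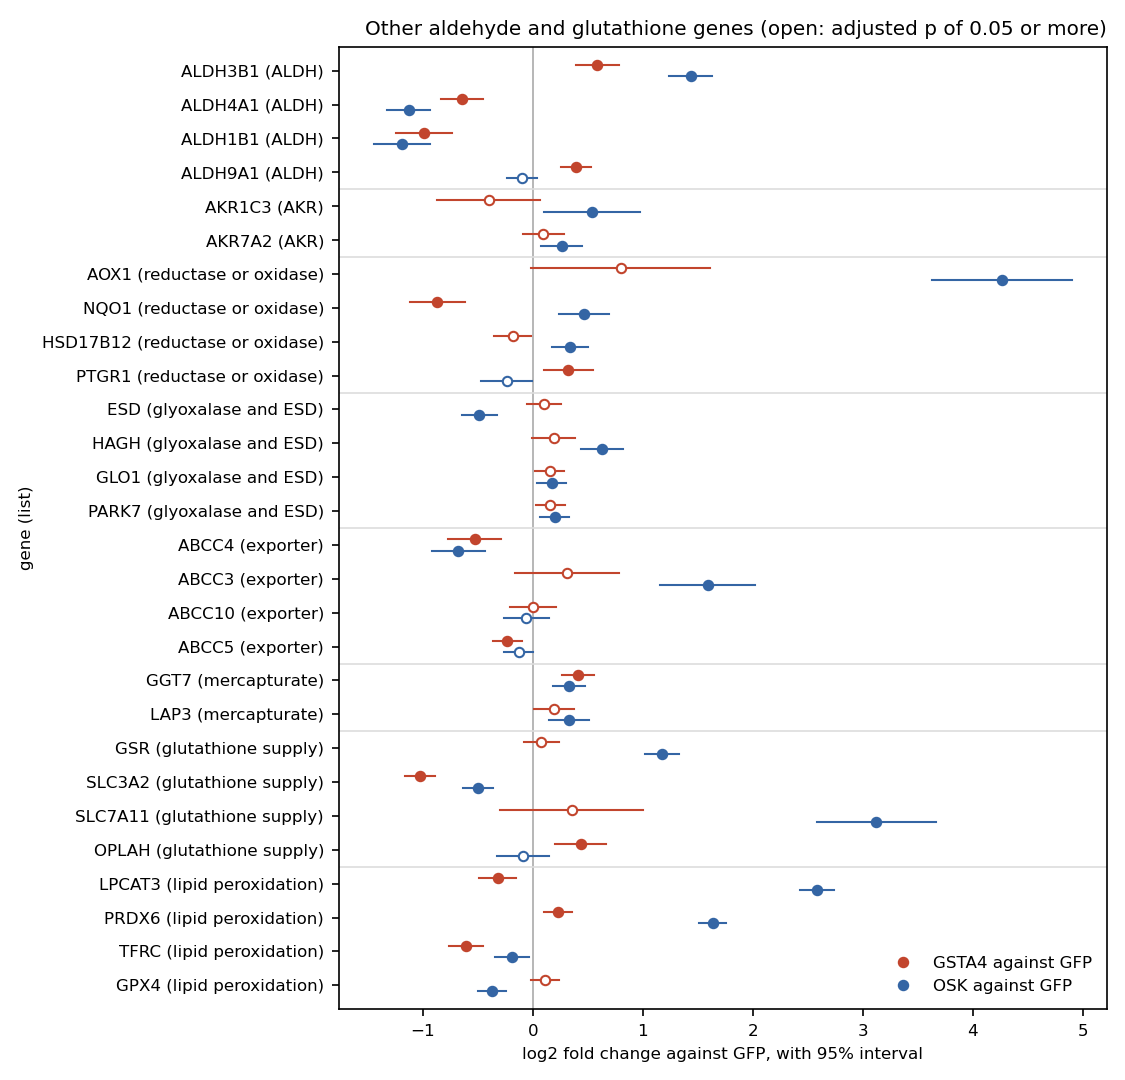
Log2 fold changes against GFP of 28 other genes of aldehyde and glutathione metabolism, by list, with 95% intervals as bars, red for GSTA4, blue for OSK, and open points where the adjusted p is 0.05 or more. AOX1 (4.27), SLC7A11 (3.12) and LPCAT3 (2.58) lie far to the right in OSK, while SLC3A2 (-1.03) and ALDH1B1 (-0.99) lie farthest to the left in GSTA4.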

How the data were processed

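Poly(A) RNA libraries were made from 12 ARPE-19 samples in 4 groups of 3. The authors deposited a table of raw counts of reads for each gene and library, made with STAR 2.7.1a and featureCounts 1.6.2, per the submitters' processing notes, which name human and mouse builds with no role. Annotation and strand setting are not given in the sources used here. Of 60605 lines, 20014 had no symbol (0.485% to 0.822% of reads) and were left out. Total counts were 12630675 to 17045454. In R 4.3.3, edgeR 4.0.16 with limma 3.58.1 fitted 1 mean per group over all 12 libraries after TMM scaling and filterByExpr (15179 genes, common BCV 7.91%). Two-sided quasi-likelihood F tests were adjusted by Benjamini-Hochberg over all genes of a comparison, with 0.05 as the threshold. SE is the log2 fold change over the root of F, and 95% intervals use 8 residual and 12 prior degrees of freedom. All 9 genes were named. Of each other list, up to 4 genes were named by the smallest F test p-value over the 4 groups, among those with at least 1 CPM and a call against GFP or between GFP and WT, and for each of the 9 the 2 genes nearest in pattern. Some genes of the lists are not reported here. The 9 genes and the lists were chosen with earlier results of these data known. The fit was tested on simulated counts. The alternatives changed the scaling (RLE, or library size alone) or the filter (none, or at least 1 CPM), or used DESeq2 1.42.0, a replicate block, each library left out, only the libraries compared, or lines with no symbol too. Promoters are from RefSeq (GRCh38.p14), and gene positions and coding sequences from GENCODE 29 (GRCh38).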

Additional observations from a re-analysis of the deposited data

How the results depend on the processing

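Counts of called genes, for the 8 tested genes and for all genes, stayed within 1.5 times of the main count under all 21 alternatives run. Of 28 calls on the 8 genes, 24 were never lost, among them those of GSTA4 in comparisons with its own line. The exceptions were ABCC1 in GSTA4 against WT, ALDH3A2 in GFP against WT, AKR1B1 in OSK against WT and ADH5 in OSK against GSTA4. With 1 library left out, 5 of 8 were called each time in GSTA4 against GFP, 4 to 5 in OSK against GFP, 2 to 3 in GFP against WT and 4 to 6 in OSK against GSTA4. Signs changed only for values near 0. AKR1A1 in GSTA4 against GFP (log2 0.00026) became -0.0052 under RLE scaling, -0.0058 with library size alone, -0.0165 at 1 CPM or more, -0.00479 in DESeq2, -0.0156 with only the libraries compared, -0.00785 with unnamed lines, and -0.119 to 0.075 with 1 library left out. ALDH2 and AKR1A1 in OSK against WT became -0.0205 and -0.0189 with library size alone. With 1 library left out, ALDH2 ran from -0.00863 to 0.1248 in OSK against WT, -0.000323 to 0.162 in OSK against GFP and -0.107 to 0.0483 in GFP against WT, and AKR1A1 from -0.166 to 0.0334 in GFP against WT. Without WT replicate 1 and GFP replicate 1 together, an alternative chosen after seeing the data, the values were 0.131 and 0.0433 for ALDH2 and AKR1A1 in GFP against WT, -0.13 for AKR1A1 in GSTA4 against GFP and -0.00711 for ALDH2 in OSK against GFP.

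The replicate numbers shared by the groups were not taken to pair the samples. Deviations of same-numbered libraries correlated at -0.07 to 0.29, with 10 of 18 over 0.1, among them all 3 pairs of WT with GFP and all 3 of WT with GSTA4, and 6 of 12 libraries were closest to their own number, a hint from the data only. With the replicate number as a block the 8 genes lost no call between 2 groups. The calls gained were AKR1B1 in OSK against GFP (edgeR adjusted p = 0.0182), ALDH1A3 in GFP against WT (0.0494) and ADH5 in GSTA4 against WT (0.0468). The share of all genes called with the block is not given here, so these gains are not read as particular to the 8 genes. Depth limits AKR1C1, AKR1C2 and the other alpha class transferases, which lie at or near the floor of 3 reads.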
